A study of Mus musculus with 4 samples.

Results

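The 70 genes described here encode subunits of the respiratory chain and of the mitochondrial ATP synthase. They are the genes on the array whose single annotated symbol begins with Nduf (complex I), Uqcr (complex III), Cox4 to Cox8 (complex IV) or Atp5 (ATP synthase, complex V), or is Sdha to Sdhd (complex II). They were measured by 80 of the 13738 spots with 1 symbol, and make up 70 of the 10698 genes named on the array. Complex I had 32 genes, complex II 2, complex III 6, complex IV 14 and complex V 16. The rule also takes in 5 assembly factors of complex I, which help to build the complex without staying in it, and 2 pseudogenes, Ndufs5-ps and Atp5k-ps1. Ndufa4 is counted with complex I by its symbol, although its protein is now placed in complex IV.

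The respiratory chain sits in the inner mitochondrial membrane. Complexes I and II pass electrons from NADH and succinate to ubiquinone, complex III hands them on to cytochrome c, and complex IV uses them to reduce oxygen to water. Complexes I, III and IV pump protons as they do so, and ATP synthase lets the protons flow back to make ATP. In neurons this ATP pays mainly for ion pumping after synaptic activity and for transmitter recycling. The genes studied here are all in the nucleus, while a few catalytic subunits are encoded by mitochondrial DNA. None of the 13 mitochondrially encoded subunit genes had a named spot.

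RNA came from CA1, the pyramidal cell field of the hippocampus, of young male C57BL/6J mice. Both groups had received MK-801, a blocker of the NMDA type of glutamate receptor, at 300 micrograms per g body weight as labelled, an amount that lies far above usual mouse doses. The MK mice received the drug alone. The MK C+S mice received it 1 h before contextual fear conditioning, in which 2 min in the chamber followed by a shock to the feet (0.5 mA, 1 s) was given 3 times. Tissue was collected 1, 2, 4 and 6 h after the last shock together with time-matched MK controls, and each time was measured on 1 array with MK in green and MK C+S in red. There is thus no untreated or drug-free group, no replicate array and no dye swap, so conditioning and dye cannot be told apart. How many mice went into each array is not stated in the labels, and precision is limited by there being 4 arrays.

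Values are log ratios from the authors' deposited table. If they follow the common convention of red divided by green, a gene above 0 had more RNA in MK C+S, but neither the direction nor the log base is stated, so this direction is only likely. Base 10 was assumed wherever a fold is given, so that 2-fold is 0.30. Exact zeros were treated as missing ratios, and each array was centred on the median of its measured spots. Where 4 values are given together for a gene or a median, they are log ratios at 1, 2, 4 and 6 h in that order. A log ratio carries no level, so the labelled tissue could not be checked by the level of its markers. Of 8 CA1 pyramidal markers, 5 were on the array, with median log ratios of 0.11, 0.024, -0.065 and -0.14. In bulk tissue, fewer cells of a type and less RNA per cell cannot be told apart.

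Of the 70 genes, 58 had a ratio on all 4 arrays and 66 on at least 1. Ndufa13, Cox6a1, Cox8a and Atp5o were at exact 0 on every array. Atp5a1, Ndufa11, Ndufb2 and Uqcrfs1 had a ratio only at 1 h, Atp5d at 1 and 6 h, Cox7c at 4 and 6 h, Cox5b at all times but 1 h, and Atp5h at all times but 2 h. Exact zeros made up 8, 15, 12 and 11 of the 80 spots at 1, 2, 4 and 6 h. At 1 h that is 10% of the set's spots beside 22.7% of all spots, while at 2 and 4 h it is 18.8% and 15% beside 9.34% and 7.39%, and at 6 h 13.8% beside 1631 of 16281 spots. The set thus lost a smaller share of spots than the array as a whole at 1 h and a larger one at 2, 4 and 6 h. Between arrays, Pearson correlations across all spots, which are not independent replicates, ran from 0.016 (1 and 6 h) to 0.37 (2 and 4 h).

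Promoter sequences are shown first for the 4 genes that had the lowest p-values in the tests reported further on. Ndufb4 and Atp5k led the comparison of late with early times, Ndufb4 and Atp5md the slope over hours, and Atp5md and Uqcrc1 the mean over times. Nuclear genes of the respiratory chain are known targets of nuclear respiratory factor 1, of GABP, which is a factor of the ETS family, and of YY1. Capitals mark a match on either strand to the motif of nuclear respiratory factor 1, with any base allowed at its 1 open position, to CCGGAAG (ETS family) or to the YY1 motif. Each sequence is the 250 bases before the annotated start of the gene, 5′ to 3′ on the gene's strand, from RefSeq on build GRCm38.p6.
Ndufb4, chr16:37654369-37654618, minus strand: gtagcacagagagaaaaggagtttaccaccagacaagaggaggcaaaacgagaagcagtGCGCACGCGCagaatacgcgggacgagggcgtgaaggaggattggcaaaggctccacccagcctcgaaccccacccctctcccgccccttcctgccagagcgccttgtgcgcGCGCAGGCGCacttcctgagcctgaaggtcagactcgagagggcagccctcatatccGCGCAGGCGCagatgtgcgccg
Atp5k, chr5:108434400-108434649, minus strand: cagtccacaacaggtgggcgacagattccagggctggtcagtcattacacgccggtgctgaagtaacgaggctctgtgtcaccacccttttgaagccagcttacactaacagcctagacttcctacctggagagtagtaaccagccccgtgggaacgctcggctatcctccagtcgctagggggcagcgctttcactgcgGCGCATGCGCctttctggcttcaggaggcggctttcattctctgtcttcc
Uqcrc1, chr9:108936398-108936647, plus strand: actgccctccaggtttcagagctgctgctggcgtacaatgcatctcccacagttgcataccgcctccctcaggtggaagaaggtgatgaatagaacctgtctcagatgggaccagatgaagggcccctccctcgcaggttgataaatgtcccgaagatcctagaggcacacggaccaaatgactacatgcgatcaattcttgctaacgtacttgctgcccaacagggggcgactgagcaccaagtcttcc
Atp5md, chr19:47090648-47090897, minus strand: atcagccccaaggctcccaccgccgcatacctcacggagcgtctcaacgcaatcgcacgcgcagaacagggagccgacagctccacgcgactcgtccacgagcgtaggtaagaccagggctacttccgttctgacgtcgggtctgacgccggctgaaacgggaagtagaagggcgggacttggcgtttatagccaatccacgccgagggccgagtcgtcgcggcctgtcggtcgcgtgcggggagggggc
Ndufb4 held 3 matches to the nuclear respiratory factor 1 motif, which begin 191, 79 and 22 bases before the start, and Atp5k held 1, which begins 50 bases before it. Uqcrc1 and Atp5md had no match in these 250 bases. In the 50 bases after the start, which are not printed, Uqcrc1 had 2 matches to that motif, and Atp5k and Atp5md had 1 match each to the ETS motif.

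Promoter windows of 300 bases, from 250 before to 50 after the start, were given for 60 of the 70 genes, with 64 windows in all. The nuclear respiratory factor 1 motif was in 15 of the 64 windows (23.4%), beside 4.60% of 32851 windows of all genes. The ETS motif was in 14 (21.9%, beside 8.86%) and the YY1 motif in 3 (4.69%, beside 0.852%). Genes with the nuclear respiratory factor 1 motif had median log ratios of -0.078, -0.046, 0.088 and 0.051, and those with a window but without the motif -0.036, -0.077, 0.019 and 0.053. Genes of both kinds thus had medians below 0 at 1 and 2 h and above 0 at 4 and 6 h. Those with the ETS motif had -0.085, -0.11, 0.038 and 0.040. The 3 genes with the YY1 motif had medians above 0 at all times, at 0.0036, 0.063, 0.13 and 0.055, with 1 of the 3 below 0 at each time. A match describes the letters of the window and is not evidence of binding.

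Across the set, log ratios lay mostly below 0 at the early times and mostly above 0 at the late ones. The medians at 1, 2, 4 and 6 h were -0.051, -0.074, 0.059 and 0.051, beside medians of all named genes within 0.0062 of 0 at each time. At 1 h 41 of 64 measured genes were below 0 (64.1%, beside 49.6% of all named genes), and at 2 h 43 of 59 (72.9%, beside 50.3%). At 4 h 38 of 61 were above 0 (62.3%, beside 49.8%), and at 6 h 37 of 62 (59.7%, beside 48.6%). After subtraction of a running median (window of 51 spots) from each array, the 6 h median was 0.00012, which has no clear direction. With exact zeros kept as a ratio of 1, the 6 h median was 0.0081. The range between the quartiles of the set went from -0.16 to 0.022 at 2 h and from -0.054 to 0.13 at 4 h.

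**Figure D1:**
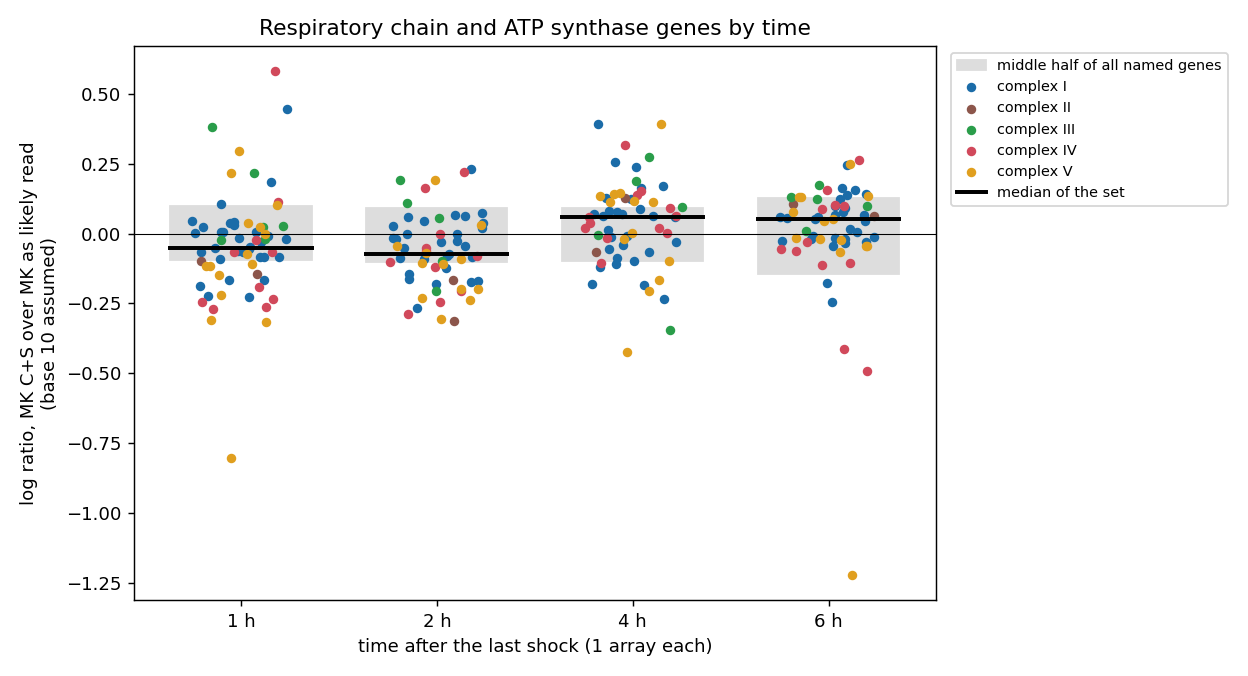
Log ratio (base 10 assumed, vertical axis) of each measured gene of the set on the array of each time (horizontal axis), 1 point per gene, coloured by complex; the black bar is the median of the set and the grey box the range between the quartiles of all named genes. The median lies at -0.051 and -0.074 at 1 and 2 h and at 0.059 and 0.051 at 4 and 6 h, and the lowest points are Atp5j at 1 h and Atp5md at 6 h.

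Between 2 and 4 h, 41 of 59 genes had the higher log ratio at 4 h, beside 48.8% of all named genes, with a median difference of 0.10 against -0.0049. The differences ran from -0.34 to 0.50. The mean of 4 and 6 h lay above the mean of 1 and 2 h in 43 of 58 genes, beside 45.8% of all named genes. With 1 array per time these counts have no replicate error. Neither count was planned, and 4 h was set against 2 h because earlier results of these data gave opposite signs there. They are thus descriptions and no independent support for a change with time. Without the 1, 2, 4 or 6 h array, 47, 41, 48 and 42 of the 58 genes had the higher late value. The shares of all named genes were then 47.5%, 45.8%, 46.8% and 44.9%. The pattern of 2 negative early and 2 positive late values was found in 9 genes, namely Ndufa4, Ndufa5, Ndufaf3, Ndufb8, Ndufc1, Sdhc, Cox4i1, Cox7a1 and Atp5k, and is named here after the values were seen. Its share among all named genes was 5.68%. The reverse pattern was found in 1 gene, Ndufb4, beside 7.21% of all.

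**Figure D2:**
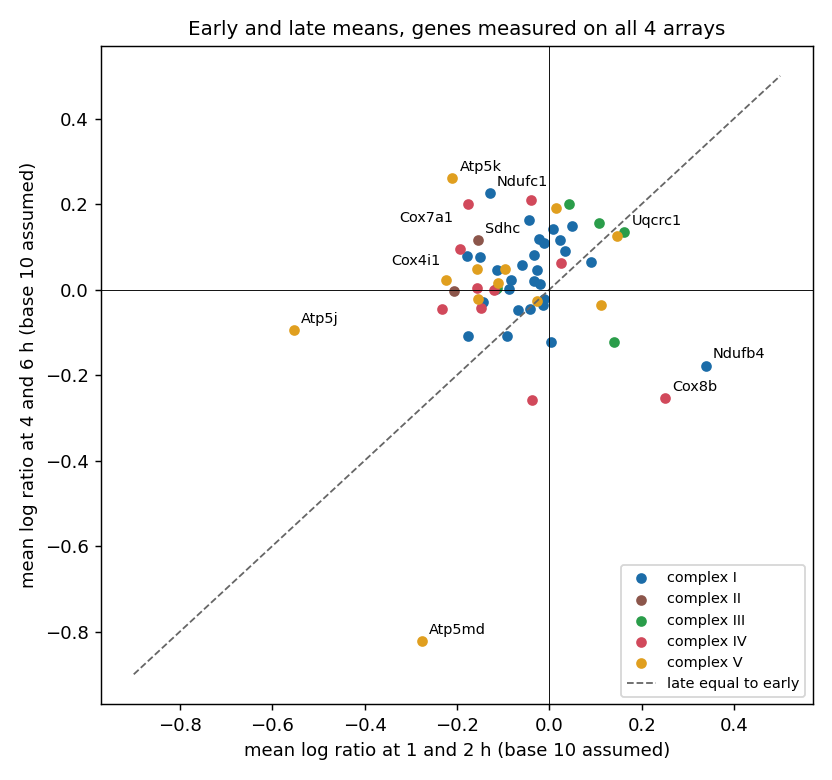
Mean log ratio at 4 and 6 h (vertical axis) against that at 1 and 2 h (horizontal axis), both with base 10 assumed, for the 58 genes measured on all 4 arrays; points are genes coloured by complex, and the dashed line marks equal values. The 43 points above the line have the higher late mean; Ndufb4 and Cox8b lie at the lower right, Atp5j at the far left and Atp5md at the bottom.

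A difference of 2-fold or more was reached by few genes of the set. At 1 h it was 6 of 64 genes, beside 8.47% of all named genes. Cox8b, Ndufb4 and Uqcrb were positive (5.12% of all genes were), and Atp5j, Atp5md and Atp5k negative (3.35%). At 2 h Sdhb and Atp5j, 2 of 59 genes, passed, both negative, beside 6.58% of all genes, of which 2.44% positive and 4.14% negative. At 4 h it was 5 of 61, with Ndufc1, Atp5k and Cox7b positive and Atp5md and Uqcrb negative, beside 7.07% of all genes, of which 2.49% positive and 4.58% negative. At 6 h it was 3 of 62, namely Atp5md, Cox8b and Cox6a2, all negative, beside 21.9% of all named genes, of which 10.2% positive and 11.7% negative. The array at 6 h had the widest spread of all genes, with a median absolute deviation of 0.13 against 0.095 to 0.097 at the earlier times. The set did not widen with it, and its own median absolute deviation was 0.077, 0.092, 0.081 and 0.074 at 1, 2, 4 and 6 h. Over all times, 10 genes passed 2-fold on at least 1 array. The matching share of all named genes was not worked out, so this count does not set the genes apart from the rest of the array. Read as base 2 in place of base 10, the same values gave 0, 0, 0 and 1 genes, and the matching shares of all named genes were not worked out.

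**Figure D3:**
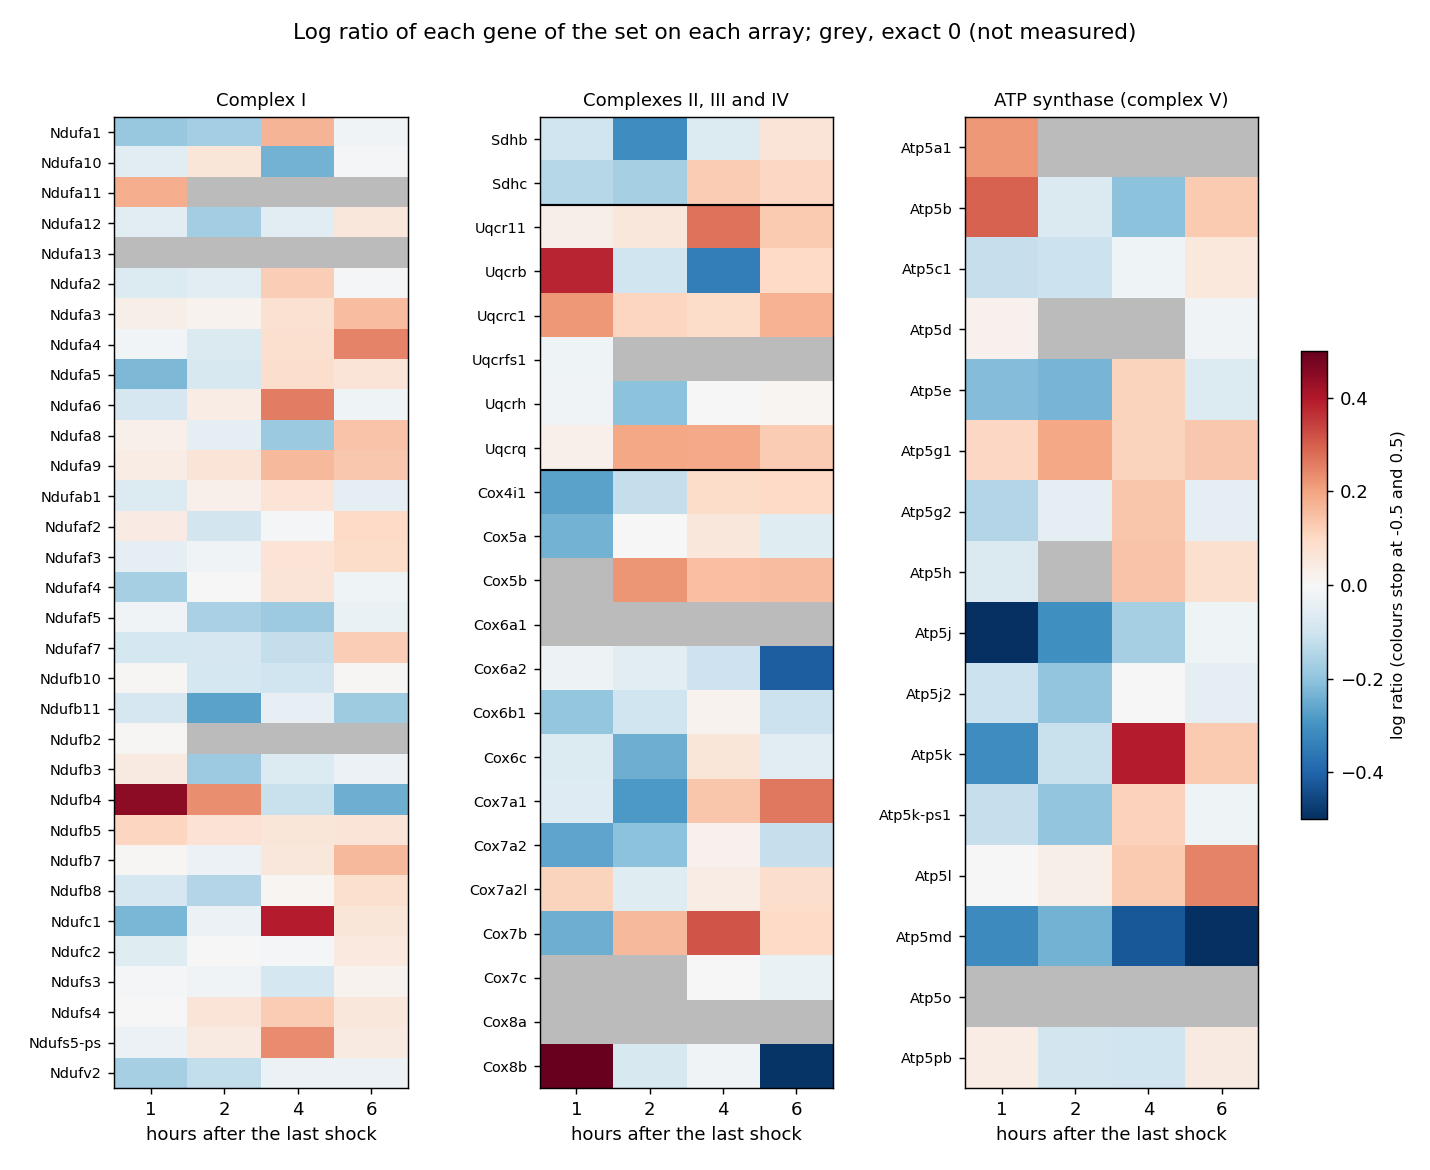
Log ratio of each gene of the set (rows, by complex) on the arrays at 1, 2, 4 and 6 h (columns), with base 10 assumed; red is positive, blue negative and grey an exact 0, and colours stop at -0.5 and 0.5. Blue prevails at 1 and 2 h, with 41 of 64 and 43 of 59 genes below 0, and red at 4 and 6 h, with 38 of 61 and 37 of 62 above 0.

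Complex I, the NADH dehydrogenase that begins the chain, had medians of -0.030, -0.031, 0.058 and 0.050, with 19 of 31, 20 of 29, 13 of 29 and 11 of 29 genes below 0, beside 50.2% and 51.4% of all named genes at 4 and 6 h. Its core is represented by Ndufs3 and Ndufv2, subunits of the arm that takes electrons from NADH. Ndufv2 was at -0.16, -0.12, -0.029 and -0.030, below 0 on all 4 arrays, and Ndufs3 at -0.0091, -0.017, -0.088 and 0.017. Ndufb4, an accessory subunit of the membrane arm, had the widest course in the complex, at 0.45, 0.23, -0.11 and -0.25. It was thus high early and low late, against the direction of most of the set. Ndufc1, another accessory subunit, went the other way, at -0.23, -0.031, 0.39 and 0.060, and its 4 h value was the highest of the set at that time.

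Among the further accessory subunits of complex I, Ndufb11 was below 0 on all 4 arrays, at -0.085, -0.27, -0.040 and -0.18. Ndufa9, which lies close to the ubiquinone site, was above 0 on all 4, at 0.037, 0.063, 0.16 and 0.14. Ndufa3, Ndufb5 and Ndufs4 were also above 0 throughout, between 0.0036 (Ndufs4 at 1 h) and 0.15 (Ndufa3 at 6 h). Ndufab1, the mitochondrial acyl carrier protein, rested on 4 spots and stayed within 0.068 of 0, at -0.067, 0.026, 0.068 and -0.043. Its spots had different signs on 3 of the 4 arrays. The assembly factors had medians of -0.049, -0.085, -0.010 and 0.091, and Ndufaf5, an enzyme that modifies a core subunit, was below 0 on every array, at -0.019, -0.16, -0.18 and -0.035. The spot for Ndufs5-ps, at -0.030, 0.044, 0.24 and 0.046, may also bind RNA of its parent gene, so those values are uncertain as to their source.

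Complex II, succinate dehydrogenase, was represented by Sdhb, the iron-sulfur subunit, and Sdhc, a membrane anchor. Sdhb was at -0.10, -0.31, -0.067 and 0.063, and its 2 h value was the lowest of the set at that time. Sdhc was at -0.14, -0.17, 0.13 and 0.11. Both were below 0 at 1 and 2 h and both above 0 at 6 h.

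The medians of complex III stood on the other side of 0 from those of the other complexes at the early times. They were 0.026, 0.056, 0.093 and 0.13 over 5 or 6 genes, with 2 of 6, 2 of 5, 2 of 5 and 0 of 5 genes below 0. Uqcrc1, a core protein of the complex, was at 0.22, 0.11, 0.093 and 0.18. Uqcrq, a small membrane subunit, was at 0.024, 0.19, 0.19 and 0.13, and Uqcr11, a further small subunit, at 0.028, 0.056, 0.27 and 0.13. These 3 genes were above 0 on every array. Uqcrb, which lies near a ubiquinone site, moved across 0 more than once, at 0.38, -0.10, -0.35 and 0.10. Uqcrh, the hinge protein of cytochrome c1, was at -0.018, -0.21, -0.0038 and 0.0099, and Uqcrfs1, the Rieske iron-sulfur protein, at -0.022 at 1 h, its only measured value.

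Complex IV, cytochrome c oxidase, had medians of -0.13, -0.080, 0.048 and -0.044, and 8 of 10, 9 of 11, 2 of 12 and 7 of 12 genes lay below 0. Several of its subunits come in isoforms, of which Cox6a2, Cox7a1 and Cox8b are known from heart and skeletal muscle. Among the other subunits, 6 of 7 genes were below 0 at 1 h, 6 of 8 at 2 h, 0 of 9 at 4 h and 5 of 9 at 6 h. Cox4i1, the large subunit through which ATP inhibits the enzyme, was at -0.27, -0.12, 0.093 and 0.10. Cox7a2 was at -0.26, -0.20, 0.021 and -0.11 and Cox6b1, which faces the intermembrane space, at -0.19, -0.10, 0.019 and -0.11. Cox5a was at -0.24, -0.0018, 0.059 and -0.062, and Cox5b, whose 1 h value was not measured, at 0.22, 0.15 and 0.15 at 2, 4 and 6 h. Cox7b was at -0.24, 0.16, 0.32 and 0.10. Cox7a2l, a relative of the Cox7a subunits, was at 0.11, -0.061, 0.038 and 0.089.

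The isoforms known from muscle did not share 1 course. Cox8b was at 0.58, -0.080, -0.017 and -0.49, the highest gene of the set at 1 h and among its lowest at 6 h. Cox6a2 was below 0 throughout, at -0.023, -0.051, -0.10 and -0.41. Cox7a1 was at -0.065, -0.29, 0.14 and 0.26 as the mean of 2 spots, one at -0.28, -0.30, 0.19 and -0.14 and the other at 0.15, -0.27, 0.093 and 0.66. The spots agreed closely at 2 and 4 h and were of opposite sign at 1 and 6 h, so the highest value of the set at 6 h, that of Cox7a1, rested on 1 of them. Levels could not be compared between isoforms, as the deposited values are ratios.

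ATP synthase had medians of -0.11, -0.11, 0.11 and 0.013, with 10 of 15, 10 of 12, 5 of 13 and 7 of 14 genes below 0. In its catalytic head, the beta subunit gene Atp5b was at 0.30, -0.071, -0.20 and 0.13, and the alpha subunit gene Atp5a1 at 0.22 at 1 h only. The central stalk gene Atp5c1, for the gamma subunit, was at -0.11, -0.11, -0.020 and 0.051, and Atp5e, for the epsilon subunit, at -0.22, -0.23, 0.11 and -0.068. Atp5d, for the delta subunit, was at 0.022 and -0.017 at 1 and 6 h. At 1 h both genes of the alpha and beta subunits were thus above 0, while those of the gamma and epsilon subunits were below it.

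The membrane part of ATP synthase held the lowest value of the set at 6 h, that of Atp5md. Atp5md encodes DAPIT, a small subunit known to help pair the enzyme into dimers. It was at -0.32, -0.24, -0.42 and -1.22, below 0 on all 4 arrays and past 2-fold on 3, which is 16.7-fold lower at 6 h with base 10. These values rest on 1 spot, and the 6 h array had the widest spread of all genes. Atp5k, for subunit e, was at -0.31, -0.11, 0.39 and 0.13, low at the early times and high at 4 h. The pseudogene Atp5k-ps1 was at -0.12, -0.20, 0.12 and -0.020, and the spots of a gene and its near copy can share RNA, so that the 2 cannot be counted as independent. Atp5l, for subunit g, was at -2.9e-05, 0.030, 0.13 and 0.25. Atp5g1 and Atp5g2 encode the same mature protein, the subunit of the rotating ring. Atp5g1 was above 0 on all 4 arrays, at 0.10, 0.19, 0.11 and 0.14, and Atp5g2 was not, at -0.15, -0.046, 0.14 and -0.046. Atp5j2, for subunit f, had 2 spots with the same sign at 1, 2 and 6 h and was at -0.11, -0.20, 0.0023 and -0.046.

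In the peripheral stalk, which holds the head still, Atp5j (coupling factor 6) was at -0.80, -0.31, -0.17 and -0.021. This mean came from 2 spots that did not resemble each other, one at -1.71, -0.66, -0.38 and -0.15 and the other at 0.11, 0.050, 0.042 and 0.10. The lowest value of the set at 1 h, that of Atp5j, therefore rested on 1 spot. Atp5pb, for subunit b, was at 0.039, -0.092, -0.10 and 0.043, and Atp5h, for subunit d, at -0.072, 0.14 and 0.078 at 1, 4 and 6 h. Over the 8 genes with several spots, 20 pairs of gene and time had 2 or more measured spots, and in 9 of them the spots had 1 sign.

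Whether a gene differed between MK C+S and MK over the 4 times was tested with limma on 8553 named genes measured on all 4 arrays, and its error is the spread from time to time. At a Benjamini-Hochberg adjusted p under 0.05, 0 of the 58 genes of the set were called, and 0 of all 8553 (0%). At an unadjusted limma p under 0.05 there were 6 of 58, beside 11.4% of all genes. Uqcrc1 (mean 0.15, SE 0.051), Atp5g1 (0.14, SE 0.049) and Uqcrq (0.13, SE 0.054) were positive. Atp5md (-0.55, SE 0.16), Atp5j (-0.32, SE 0.12) and Ndufb11 (-0.14, SE 0.058) were negative. The lowest adjusted p of the set was 0.427, for Atp5md and Uqcrc1, in limma's moderated test. The Atp5md mean was -0.33 when the 6 h array was left out. That of Atp5j was -0.17 when the 1 h array was left out. The mean of Atp5j was 0.076 by one of its 2 spots alone, so its negative sign came from the other. All 4 arrays had 1 sign in 14 of the 58 genes, 8 positive and 6 negative, beside 21.8% of all genes, a share close to that of the set.

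Whether the log ratio moved with time was tested as a slope on hours. Again 0 of 58 genes passed limma's adjusted test, as did 0 of 8553 (0%), while 7 of 58 had an unadjusted p under 0.05, beside 14.6% of all genes. Atp5j (0.14 per h, SE 0.038), Cox7a1 (0.090, SE 0.035) and Cox4i1 (0.074, SE 0.029) had positive slopes. The Atp5j slope rested on one of its 2 spots, as the other showed no rise, at 0.11, 0.050, 0.042 and 0.10. Atp5md (-0.18, SE 0.045), Cox8b (-0.17, SE 0.045), Ndufb4 (-0.14, SE 0.029) and Cox6a2 (-0.074, SE 0.029) had negative ones. The lowest adjusted p was 0.131, for Ndufb4. Without the 4 h array, 3 of 58 genes passed limma's test, beside 399 of 8553 genes in all (4.67%), a share close to that of the set. They were Atp5md, Cox8b and Ndufb4, at limma adjusted p-values of 0.0155, 0.0395 and 0.0473.

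The mean of 4 and 6 h was also set against the mean of 1 and 2 h, on the same arrays as the slope. In limma's adjusted test 0 of 58 genes passed, and 0 of 8553 (0%). At an unadjusted p under 0.05 there were 6 of 58, beside 6.83% of all genes, and 5 of the 6 were higher late. These were Atp5j (0.46, SE 0.18), Atp5k (0.47, SE 0.14), Cox7a1 (0.38, SE 0.12), Cox4i1 (0.29, SE 0.11) and Sdhc (0.27, SE 0.10). The Atp5j difference came from one of its 2 spots, as the other was no higher late, at 0.11, 0.050, 0.042 and 0.10. Ndufb4 (-0.52, SE 0.12) was lower late. The lowest adjusted p was 0.682, shared by several genes. Without the 4 h array, which leaves only the 6 h array as late, the Atp5md difference was -0.94. No single gene of the set was thus called with all arrays in use.

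Other genes of the pathway were set beside the subunits. Of 40 assembly factors outside the symbol rule, 16 were on the array, with medians of -0.058, -0.092, 0.016 and -0.032. Cox16, an assembly factor of complex IV, was at -0.37, -0.24, 0.026 and -0.089, and Surf1, another one, at -0.16, -0.15, -0.090 and -0.049. A further list held 24 electron carriers, transporters of phosphate and nucleotides, and related proteins. Of these, 17 were on the array, with medians of -0.046, -0.052, -0.035 and 0.011. The related proteins among them included Coq5, Coq7, Ckb, Ckmt1 and Atpif1. Slc25a3, the mitochondrial phosphate carrier, was above 0 on all 4 arrays, at 0.18, 0.27, 0.21 and 0.17, and Slc25a5, an ADP/ATP carrier, below 0 on all 4, at -0.19, -0.35, -0.25 and -0.16. Their unadjusted limma p-values in the mean over times were 0.00458 and 0.00407, and both adjusted p-values were 0.416. Cytochrome c, Cycs, was at -0.043, -0.075, -0.080 and -0.15.

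Of 20 enzymes of the tricarboxylic acid cycle and its entry, which feed NADH and succinate to the chain, 14 were on the array. Their medians were 0.026, 0.031, -0.031 and 0.030, and the late mean was the higher in 3 of 12, beside 43 of 58 for the set. Pdhb, a pyruvate dehydrogenase subunit, was at -0.069, 0.10, -0.31 and -0.24, and citrate synthase, Cs, at -0.11, -0.076, -0.044 and -0.14. Of 21 regulators of mitochondrial gene expression, 14 were on the array, with medians of 0.022, 0.042, -0.0067 and -0.072 and the higher late mean again in 3 of 12. Nrf1, which encodes nuclear respiratory factor 1, was at 0.40, -0.15, -0.35 and -0.74, high at 1 h and lowest at 6 h. Its slope was -0.20 per h, with an unadjusted limma p of 0.000889 and an adjusted p of 0.119. Ppargc1a, the coactivator PGC-1alpha, was at -0.20, 0.065, 0.019 and 0.0021, Gabpa at 0.16, -0.031, 0.047 and -0.0050 and Tfam, which binds mitochondrial DNA, at -0.043, 0.0079, -0.056 and -0.024. In each of these 4 lists 0 genes passed limma's adjusted test in the mean, the slope or late minus early, and 3, 1 and 2 genes over the 4 lists had an unadjusted p under 0.05. The lists had 15, 17, 12 and 12 genes tested, and the shares among all genes were 11.4%, 14.6% and 6.83% in these tests.

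**Figure D4:**
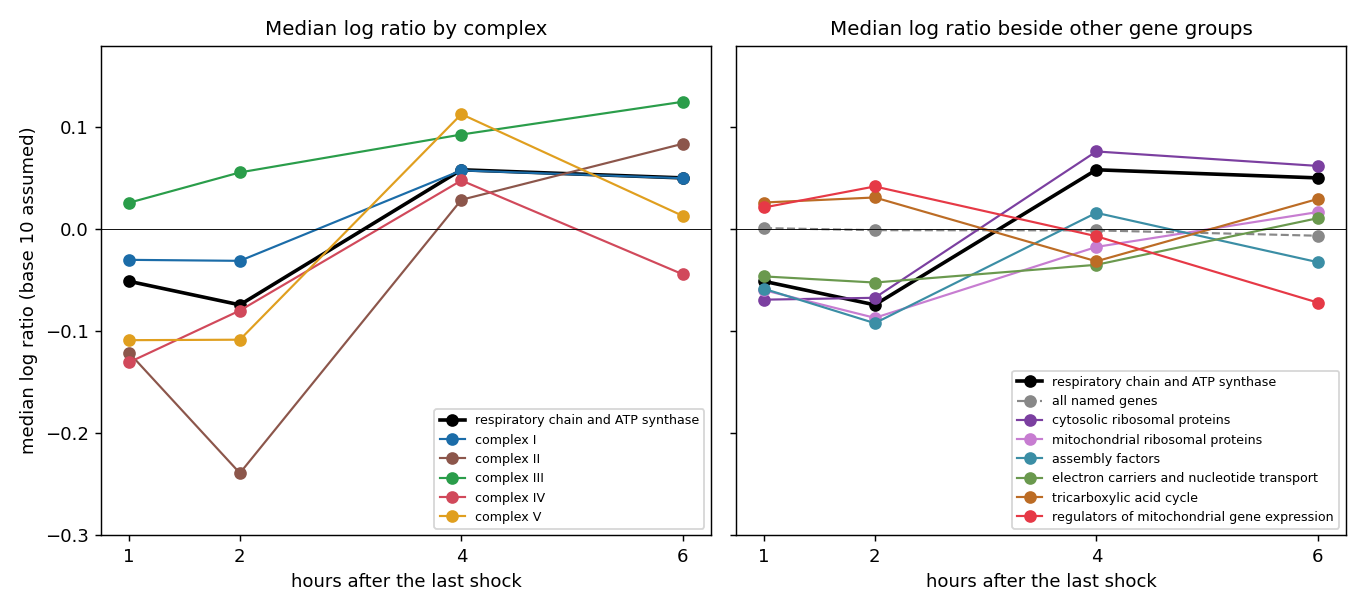
Median log ratio (base 10 assumed, vertical axis) against hours after the last shock (horizontal axis), 1 array per time; left, the set and its complexes, and right, the set beside all named genes, ribosomal protein genes and the other lists. The set and the cytosolic ribosomal proteins run from below 0 at 1 and 2 h to above 0 at 4 and 6 h, and complex III is above 0 at all times.

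Ribosomal protein genes, which also encode a large protein complex, were set beside the set. Cytosolic ribosomal protein genes had medians of -0.069, -0.067, 0.076 and 0.062, and the late mean was the higher in 35 of 43. Mitochondrial ribosomal protein genes had -0.060, -0.087, -0.017 and 0.017, with the higher late mean in 44 of 54. The higher late mean was thus found in most genes of these lists as well, and the difference between the lists was not tested. Among markers of other cell types, the 8 microglial genes had medians of -0.0097, -0.12, 0.11 and 0.10, with the late mean higher in 6 of 8, and the 8 astrocyte genes -0.039, 0.0020, 0.050 and 0.078, with 7 of 8. The 7 oligodendrocyte genes had -0.12, 0.053, 0.051 and 0.051 (late mean higher in 4 of 7), the 6 pan-neuronal genes -0.091, 0.023, 0.040 and -0.041 (4 of 6) and the 6 interneuron genes -0.12, 0.092, 0.018 and 0.0065 (4 of 6). Larger displacements were found in other lists. The choroid plexus genes had 0.51, -0.040, -0.017 and -0.12, with 5 of 6 past 2-fold at 1 h, beside 8.47% of all named genes. Their late mean was higher in 2 of 6. They did not move together, and 4 of 7 were below 0 at 2 h and at 4 h. Kl was below 0 on all 4 arrays, at -0.24, -0.34, -0.22 and -0.26. Ttr was not measured at 1 h and was at -0.66, -1.27 and -0.12 at 2, 4 and 6 h. The 6 CA3 pyramidal genes had -0.14, -0.25, -0.39 and -0.12, with 5 of 6 past 2-fold at 4 h, beside 7.07% of all named genes. The late mean of these CA3 genes was higher in 4 of 6. The 11 endothelial and mural genes had -0.11, -0.16, -0.12 and -0.041, with 7 of 11. Among the CA1 pyramidal genes the late mean was higher in 1 of 4, and among the dentate granule genes, at 0.19, 0.062, -0.0047 and 0.21, in 1 of 2. The part of cell makeup in the course of the set was not tested.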

How the data were processed

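The authors' deposited table gives 1 log ratio per spot for 16281 spots on 4 arrays. The authors deposited these values as log ratios, read here as log10, which is an assumption, since the base, direction, scanner, background correction and normalization appear in none of the sources used. Each deposited column had a median of 0. Exact zeros were set to missing, and the median of the remaining spots was subtracted from each column. Spots were named from a platform annotation, and 52 spots with several genes and 2491 unnamed ones were left out. A gene was the mean of its measured spots. All 80 spots of the set matched RefSeq (GRCm38.p6) by Entrez identifier, with 0 symbols changed.

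Samples were grouped by the time in the labels. Single times have no test. Means, slopes and late minus early were fitted across all genes with limma 3.58.1 under R 4.3.3 (lmFit, then eBayes), two-sided, with Benjamini-Hochberg adjustment, and the error is the spread between times. On simulated data with 8553 genes, the mean test called 79 of 100 genes shifted by 0.3 and 100 of 100 shifted by 0.6, with 10 unchanged genes called. The slope test called 99 of 100 genes with a change of 1.2 from 1 to 6 h, and late minus early 100 of 100 at 1.2, with 16 and 6 unchanged genes called. The simulated noise was normal, with the same spread for all genes on an array, whereas the spread of real genes differed. These counts therefore do not give the chance that a real shift of such a size would be called. No intensities were used, so signal over background is unknown.

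The set, the lists and the rule for named genes were chosen with earlier results of these data known. Named genes are core subunits and isoform sets from a list, the 4 largest absolute means per complex, the highest and lowest gene at each time, the 2 lowest p-values per test, genes past 2-fold on 2 or more arrays and genes with several spots. Genes outside it were chosen after their values were seen, namely Ndufs3, Ndufa3, Ndufa4, Ndufa5, Ndufaf3, Ndufb8, Ndufb5, Ndufs4, Atp5e, Atp5pb, Atp5h, the pseudogenes, genes named for missing ratios and the named genes of the lists. Alternatives covered exact zeros, centring, spot summary, scaling, position, weights, size, log base, time scale and left-out arrays.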

Additional observations from a re-analysis of the deposited data

Results flagged for a closer look

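Several results had both early arrays on one side of 0 and both late arrays on the other. For the medians this difference was not tested. The mean of the 4 and 6 h medians minus that of the 1 and 2 h medians was 0.12 for the whole set, 0.084 for complex I, 0.24 for complex II and 0.17 for complex V. Complex II rests on 2 genes. For single genes the same difference was 0.47 for Atp5k, 0.29 for Cox4i1, 0.38 for Cox7a1, 0.36 for Ndufc1, 0.27 for Sdhc and -0.52 for Ndufb4. In limma's moderated test of late minus early, each of these genes had an adjusted p of 0.682.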

How the results depend on the processing

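The medians of the set at 1, 2 and 4 h, and of 4 h minus 2 h, kept their direction. This held under the 7 alternatives that change the values or the genes. The 6 h median came to about 0 with a running median removed, and to 0.0081 with exact zeros kept as a ratio of 1. The medians ranged from -0.056 to -0.017 at 1 h, -0.081 to -0.046 at 2 h, 0.016 to 0.066 at 4 h and 0.00012 to 0.051 at 6 h, where the lowest 6 h value came with a running median over 51 spots removed. Counts of genes past 2-fold depended on the size and on the log base. At 1.5-fold they were 19, 16, 13 and 8 at 1, 2, 4 and 6 h, and at 3-fold 2, 0, 0 and 2. Read as base 2 they were 0, 0, 0 and 1, and as natural logs 1, 0, 0 and 1. With a running median over 51 spots removed, 3 passed at 4 h and 6 at 6 h. The shares of all named genes under these settings were not worked out, so these counts do not set the genes apart from the rest of the array. Without each array in turn, the genes called ranged from 0 to 3 for the slope and 0 to 0 for the mean. Genes with 1 sign ranged from 17 to 25. The 3 slope calls came without the 4 h array, where 4.67% of all genes were called. Each late minus early fit then has 1 array on 1 side, so its calls are left out. The count of genes with the higher late mean, itself not planned, ranged from 41 to 48 without each array, an alternative chosen after seeing the data. The share of all named genes then ran from 44.9% to 47.5%. The mean of Atp5j was 0.076 by one of its spots alone. The mean of Atp5k was -0.0084 with the running median removed, and -0.097 to 0.14 without each array. Without each array the Ndufb4 mean ranged from -0.041 to 0.19 and the Sdhc mean from -0.068 to 0.029. The causes were not tested. Each log ratio already sets MK C+S against its time-matched MK control on the same array. No further pairing was possible because each time has 1 array and the labels give no replicate numbers.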
